A study of Mus musculus with 2 samples.

Results

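The 10 genes described here encode transcription factors that set and maintain the identity of insulin-producing β-cells: Pdx1, Mafa, Nkx6-1, Nkx2-2, Neurod1, Isl1, Rfx6, Insm1, Glis3 and Foxo1. They were taken by symbol from the deposited expression table, which held all 10 of them among 17245 genes. RNA was measured in whole pancreatic islets of mice of 2 genotypes, wild type (WT) and a knockout (KO) that the series design describes as a deletion of cGAS, a sensor of cytosolic DNA, in β-cells. Islets had been freed by collagenase, hand-picked and cultured in RPMI-1640 with serum before RNA was taken. There was 1 library per genotype, so no value below has a replicate and no test between genotypes was possible. The sources used here do not give strain, sex, age, the recombinase driver, the deleted exon or whether animals were pooled.

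Pdx1, a homeodomain protein, is needed for the pancreas to form and later activates the insulin genes. Mafa, a basic leucine-zipper factor, appears late in β-cell maturation, and Nkx6-1 keeps β-cells from taking on the programmes of other islet cells. Nkx2-2, Neurod1, Isl1, Rfx6 and Insm1 act in several or all islet endocrine cell types, α- and δ-cells included. Glis3 and Foxo1 are expressed more widely. Glis3 takes part in insulin transcription, and Foxo1 is a forkhead factor that insulin signalling moves out of the nucleus. Inherited changes in several of these genes cause diabetes in humans.

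Levels are FPKM, which count reads or fragments relative to the length of a gene in kilobases and to 1000000 of the library. This allows a rough comparison between genes, though differences between the libraries still moved with GC content and length, as given below. Library totals recovered from the values were 14537660 reads for the KO library and 19097001 for WT. Cgas itself stood at 0.521 FPKM in the KO-labelled and 0.205 FPKM in the WT library, both below the floor of 1 FPKM used here for an expressed gene. The label is thus not borne out by the total of the targeted gene. That total, near 0 and taken over all cells of whole islets, cannot decide whether β-cells lost the gene. Directions below are between libraries as labelled. The islet hormone genes were abundant in both, with Ins1 and Ins2 summing to 419689 and 364369 FPKM. Markers of other pancreatic cells differed between the libraries. All 13 expressed of 16 acinar markers were lower in the KO-labelled library, their list summing to 139 against 2141 FPKM, with the acinar factor Ptf1a listed at 0 in that library and at 0.382 FPKM in WT. All 16 endothelial markers (sum 895 against 392 FPKM), all 13 expressed of 14 stromal markers (246 against 131 FPKM) and all 13 expressed of 14 macrophage markers (344 against 150 FPKM) were higher, and no marker of these 3 lists was at 0. The stromal marker Loxl1, at a log2 difference of 0.16, turned to -0.34 once a trend on GC content and length was removed. Of 9 expressed of 11 ductal markers, 1 passed 2-fold, upwards (Ambp, 34.1 against 14.7 FPKM), beside 6.98% of all expressed genes. With that trend removed Ambp did not, and Epcam passed 2-fold downwards at -1.06. In whole islets, fewer cells of a type and less RNA per cell cannot be told apart, and the part that cell composition plays in the values below was not tested.

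Among the 10 factors, Nkx6-1, Insm1 and Glis3 were lower by 2-fold or more in the KO-labelled library, and none was higher by that much. The 2-fold limit was applied to log2((KO + 1)/(WT + 1)) of the FPKM values, a scale that understates differences of low genes. Over the 12428 genes that reached 1 FPKM in one library or the other, 3.88% were that much lower, 6.98% that much higher and 10.9% past the limit either way, so 3 of 10 lower stands beside a background of 3.88%. All 10 factors passed that floor. With a pseudocount of 5 the difference of Glis3 was -0.65, short of the limit. Of all genes past the limit 64.3% were higher, a share that was 36.5% to 52.0% under 4 other scalings of the libraries and 52.3% with a trend on GC content and length removed. The median log2 difference of the 10 factors was -0.25, beside 0.077 for all expressed genes. Mafa, Rfx6, Isl1 and Nkx2-2 lay above 0, and the other 6 below. The intervals given with ratios are exact Clopper-Pearson 95% intervals from recovered reads and cover counting error only.

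**Figure D1:**
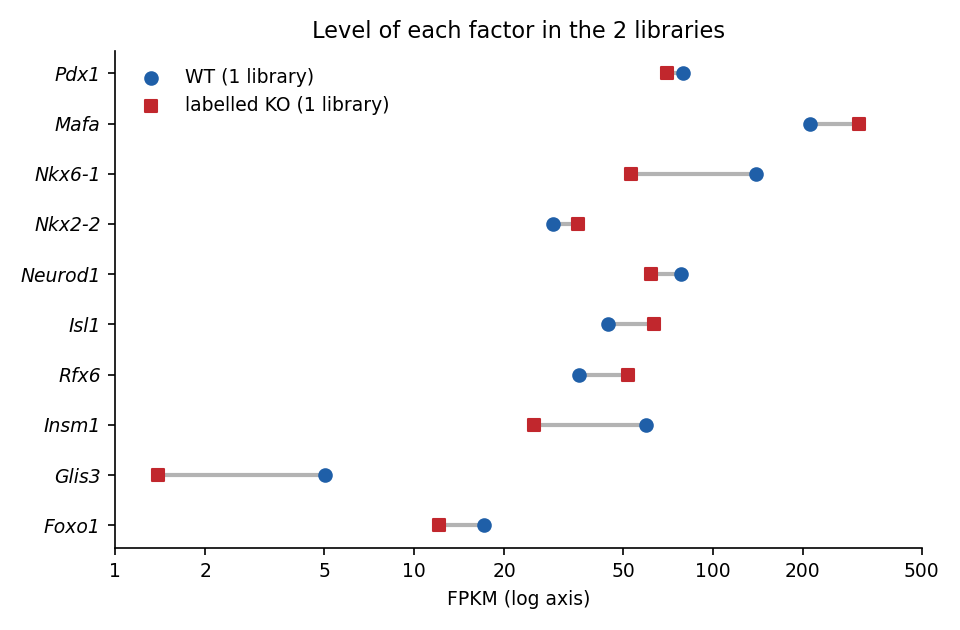
FPKM (log axis) of the 10 factors, circles for the WT library and squares for the KO-labelled library, 1 library each and no error bars. The widest gaps are those of Glis3 (1.39 against 5.03 FPKM), Nkx6-1 (53.2 against 139.8 FPKM) and Insm1 (25.2 against 59.7 FPKM).

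Of the β-cell factors, Nkx6-1 (chr5:101659184-101664711 in GRCm38.p6) differed the most. It was at 53.2 FPKM in the KO-labelled library and 139.8 FPKM in WT, a 2.63-fold lower level (2.48 to 2.79) that rested on at least 1397 and 4827 reads. Its log2 difference was -1.38, and only 1.04% of expressed genes had a lower one. Mafa (chr15:75745501-75748321) was the most abundant of the 10 in both libraries. It stood at 309 FPKM in the KO-labelled library and 211 FPKM in WT, a ratio of 1.46 (1.43 to 1.50) and a log2 difference of 0.55. Pdx1 (chr5:147270097-147275848) stood at 70.4 FPKM against 79.5 FPKM, a ratio of 0.886 (0.838 to 0.937) and a log2 difference of -0.17. With the deposited values, the 3 factors that together mark the mature β-cell did not move in step. With the trend on GC content and length removed, Nkx6-1 was at -1.82, Pdx1 at -0.57 and Mafa at -0.07, so the direction of Mafa turned.

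Of the factors shared by islet endocrine cells, Insm1 encodes a zinc-finger repressor that acts in those cells (chr2:146221997-146225020). It was at 25.2 FPKM in the KO-labelled library and 59.7 FPKM in WT. This was a 2.37-fold lower level (2.16 to 2.62) and a log2 difference of -1.21. Neurod1, a basic helix-loop-helix activator of insulin (chr2:79452637-79456636), stood at 62.0 FPKM against 78.1 FPKM, a ratio of 0.793 (0.736 to 0.855). Its log2 difference was -0.33, and -0.11 with the trend on GC content and length removed. The other 3 were higher within 2-fold with the deposited values, and Nkx2-2 turned to -0.13 with the trend on GC content and length removed. Rfx6, a winged-helix factor of islet formation (chr10:51677760-51730429), stood at 52.0 FPKM against 35.6 FPKM, a ratio of 1.46 (1.38 to 1.54). Isl1, a LIM-homeodomain protein (chr13:116298270-116309688), stood at 63.4 FPKM against 44.5 FPKM, a ratio of 1.42 (1.34 to 1.51). Nkx2-2, a homeodomain factor that represses α-cell genes in β-cells (chr2:147176485-147195434), stood at 35.4 FPKM against 29.1 FPKM, a ratio of 1.22 (1.16 to 1.28). Of the 8 islet hormone genes, 2 passed the limit, Pyy and Ins1, both upwards, beside 6.98% of all expressed genes. Ins2 was at a log2 difference of -0.46. Under other scalings 0 to 1 of the 8 passed it upwards and 0 to 1 downwards. With the GC and length trend removed neither Pyy nor Ins1 did, and Ins2 and Iapp passed it downwards, at -1.06 and -1.03. Among hormones of the cell types that share these factors, glucagon, Gcg, was at a log2 difference of -0.03, somatostatin, Sst, at 0.64 and Pyy at 1.16; with that trend removed Sst turned to -0.17 and Pyy was at 0.22.

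Of the more widely expressed factors, Glis3, a Krüppel-like zinc-finger protein (chr19:28258851-28680265), was at 1.39 FPKM in the KO-labelled library and 5.03 FPKM in WT. It had the widest ratio of the 10, 3.62-fold lower (3.22 to 4.07), from at least 350 and 1663 reads. Its log2 difference was -1.33, and 1.20% of expressed genes lay lower. Foxo1 (chr3:52268337-52350109) stood at 12.1 FPKM against 17.1 FPKM, a ratio of 0.707 (0.654 to 0.765) and a log2 difference of -0.47. With the trend on GC content and length removed, Foxo1 was at -0.18. Foxo1 RNA is also made by blood vessel cells, whose markers summed to 895 against 392 FPKM; the part of those cells in the value of Foxo1 was not tested.

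The order of the factors within each library changed with these differences. Mafa held 30.2% of the summed FPKM of the 10 in WT and 45.2% in the KO-labelled library. Nkx6-1 held 20.0% in WT, the second place, and 7.77% in the KO-labelled library, the fifth. Insm1 moved from the fifth place to the eighth, while Foxo1 and Glis3 were the ninth and the tenth in both. The sum itself was 699 FPKM in WT and 684 FPKM in the KO-labelled library. The trend on GC content and length was not removed from these shares and places. Several neighbours in the order lay close together, such as Nkx6-1 (53.2 FPKM) and Rfx6 (52.0 FPKM) in the KO-labelled library, and without replicates their order has no spread to be judged by.

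Ratios of factors within a library do not depend on a scaling factor per library; the pairs given here were picked with their values in view. Mafa was 1.51 times Nkx6-1 in WT and 5.81 times Nkx6-1 in the KO-labelled library. Pdx1 was 0.568 times Nkx6-1 in WT and 1.32 times in the KO-labelled library, so that the order of this pair turned. By contrast Mafa was 5.92 and 5.95 times Rfx6, and 4.74 and 4.87 times Isl1, so these 3 genes kept nearly the same proportions. Nkx6-1 and Insm1 also stayed in proportion, at 2.34 in WT and 2.11 in the KO-labelled library. These proportions do depend on the trend on GC content and length: with it removed, Mafa was at a log2 difference of -0.07 beside 0.77 for Rfx6 and 0.64 for Isl1, so those 3 no longer kept the same proportions, while Nkx6-1 and Insm1 were at -1.82 and -1.74.

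Expressed per insulin RNA, as FPKM per 1000000 FPKM of Ins1 and Ins2, every ratio of the KO-labelled to the WT library was lower by the same factor. Nkx6-1 was at 127 in the KO-labelled library and 384 in WT, Insm1 at 59.9 and 164, and Glis3 at 3.31 and 13.8. Mafa remained higher at 736 and 579, and Pdx1 was at 168 and 218. The trend on GC content and length was not removed here, and with it removed Mafa was at a log2 difference of -0.07. The insulin sum was 1.15 times as large in the KO-labelled library, with Ins1 at a ratio of 2.08 and Ins2 at 0.729. Ins1 and Ins2 are close copies whose reads may be divided with error.

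**Figure D2:**
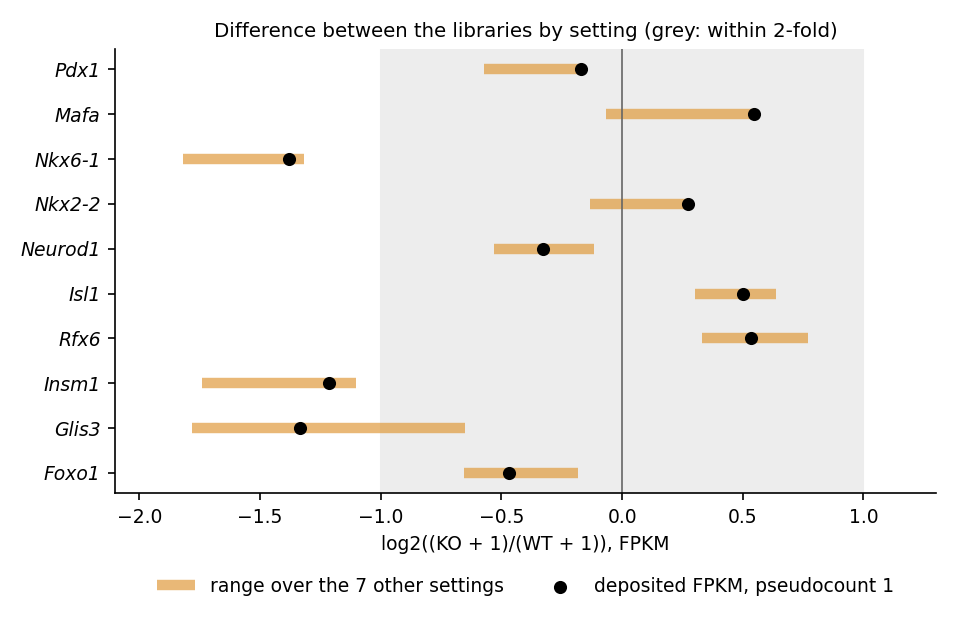
Log2 difference of each factor with the deposited values (black points) and its range over 7 other settings (bars), with the span within 2-fold in grey. Nkx6-1 and Insm1 lie below -1 throughout, Glis3 reaches -0.65 in 1 setting, and the bars of Mafa and Nkx2-2 cross 0.

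GC content moved with the differences over the whole table. The median log2 difference of expressed genes was -0.27 in the lowest of 5 equal bins by GC content of the transcript and 0.45 in the highest. Over 5 bins by transcript length it went from 0.47 for the shortest to -0.26 for the longest. Nkx6-1 (59.0% GC) and Insm1 (62.0% GC) were in the highest bin and lay far below its median. In that top bin of 2475 genes, 7 were as low as Nkx6-1 or lower and 10 as low as Insm1 or lower. Mafa, the most GC-rich of the 10 at 65.0%, lay near the median of the same bin, with 42.5% of its genes as high or higher. Nkx2-2 (55.7% GC) also sat at the middle of its bin, whose median was 0.28. Rfx6 (44.8% GC) and Isl1 (45.7% GC) were higher in a bin whose median was -0.14, where 13.1% and 14.3% of genes were as high or higher.

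With the trend on GC content and transcript length taken out, the log2 differences of Nkx6-1, Insm1 and Glis3 were -1.82, -1.74 and -1.15. Those of Rfx6 and Isl1 were 0.77 and 0.64, and those of Neurod1 and Foxo1 were -0.11 and -0.18, nearer 0 than with the deposited values. Mafa came to -0.07 and Nkx2-2 to -0.13, so the direction given above for these 2 genes does not hold on this scale, while Pdx1 came to -0.57.

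**Figure D3:**
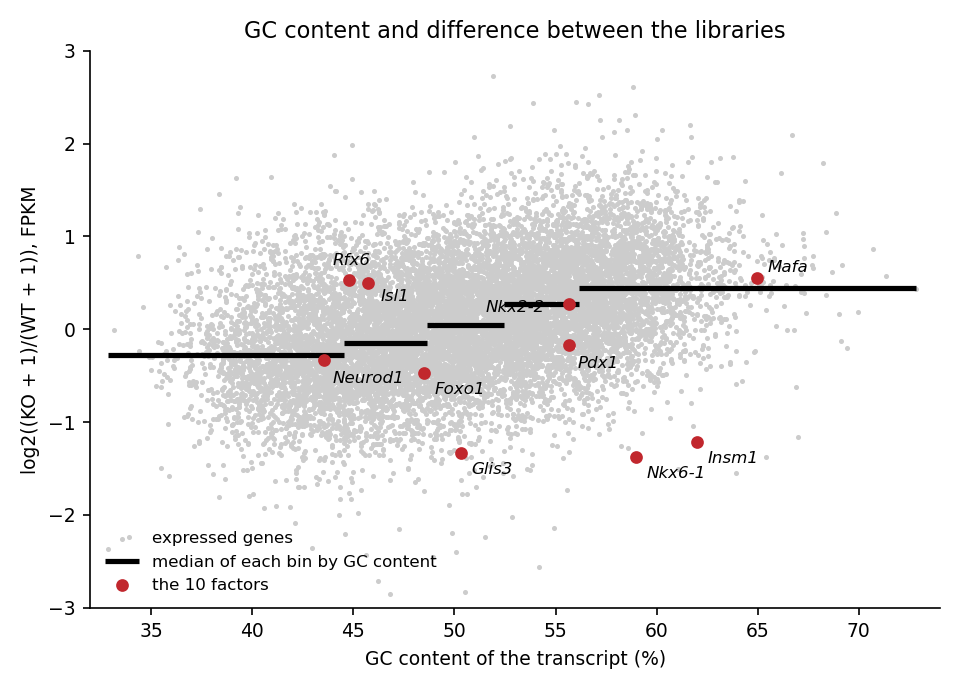
Log2 difference between the libraries against GC content of the transcript (%) for expressed genes (grey), with the median of each of 5 bins (black bars) and the 10 factors in red; 21 of 12376 genes lie outside the axes. Nkx6-1 and Insm1 lie far below the most GC-rich bin, whose median is 0.45, and Mafa lies close to it.

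Mafa and Insm1, the single-exon genes of the 10 in GENCODE M21, lay on opposite sides of 0 with the deposited values. With the GC and length trend removed both lay below 0, at -0.07 and -1.74. Nkx2-2, Neurod1 and Insm1 all lie on chromosome 2, and Pdx1 and Nkx6-1 both on chromosome 5. Neurod1 overlaps Cerkl on the same strand, and Cerkl was at 5.12 against 11.4 FPKM (log2 difference -1.02). The division of reads between this pair is uncertain. Pdx1, Nkx2-2, Neurod1, Glis3 and Foxo1 overlap antisense or other non-coding genes, and whether counting used strand is not given.

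To show the sequence in front of the factors that differed the most in each direction among the 8 with a promoter entry, the 250 bases upstream of 1 RefSeq start per gene are printed for Nkx6-1 and Glis3, which were lower, and for Rfx6 and Isl1, which were higher. The sequences are from RefSeq on GRCm38.p6, 5′ to 3′ on the strand of the gene. Capitals mark E-boxes (CANNTG), the letters bound by helix-loop-helix factors such as Neurod1, and the homeodomain core TAAT on either strand (ATTA on the other), which proteins such as Pdx1, Nkx6-1 and Isl1 recognise. No base belonged to both. For Rfx6 and Glis3 the start used lies inside the gene span given above, so other RefSeq starts of these genes are not shown.
Nkx6-1 (chr5:101664712-101664961, minus strand): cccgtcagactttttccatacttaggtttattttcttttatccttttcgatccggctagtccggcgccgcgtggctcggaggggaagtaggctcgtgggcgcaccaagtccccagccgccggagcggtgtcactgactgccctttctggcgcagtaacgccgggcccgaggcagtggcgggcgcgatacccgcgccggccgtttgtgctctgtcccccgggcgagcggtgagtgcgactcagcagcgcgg
Glis3 (chr19:28680078-28680327, minus strand): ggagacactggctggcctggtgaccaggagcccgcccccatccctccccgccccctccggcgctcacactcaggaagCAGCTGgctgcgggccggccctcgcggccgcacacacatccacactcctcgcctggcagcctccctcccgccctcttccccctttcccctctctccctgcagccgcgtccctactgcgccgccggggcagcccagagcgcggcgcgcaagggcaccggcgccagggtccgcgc
Rfx6 (chr10:51685268-51685517, plus strand): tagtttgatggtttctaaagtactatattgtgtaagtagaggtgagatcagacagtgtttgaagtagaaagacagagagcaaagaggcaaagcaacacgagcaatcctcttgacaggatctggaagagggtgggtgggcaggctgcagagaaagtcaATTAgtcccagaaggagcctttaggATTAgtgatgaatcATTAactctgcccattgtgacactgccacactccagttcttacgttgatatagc
Isl1 (chr13:116309689-116309938, minus strand): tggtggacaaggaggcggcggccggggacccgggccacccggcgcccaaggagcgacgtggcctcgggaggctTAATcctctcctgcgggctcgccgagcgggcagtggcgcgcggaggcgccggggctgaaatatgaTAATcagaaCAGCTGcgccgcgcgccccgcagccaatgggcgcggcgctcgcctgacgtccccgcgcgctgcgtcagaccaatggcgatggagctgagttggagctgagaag
The upstream window of Rfx6 held 44.0% GC and 3 homeodomain cores, and that of Isl1 71.2% GC, 2 cores and 1 E-box. That of Glis3 held 75.6% GC and 1 E-box, and that of Nkx6-1 65.2% GC and neither motif. The median window of 32851 in the table had 52.4% GC.

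Of the 8 factors with such a window (all but Mafa and Insm1), 6 held an E-box and 4 a homeodomain core, beside 66.2% and 54.9% of all windows of that length. CCAAT was found in 3 (Pdx1, Isl1 and Foxo1), beside 33.8% of all windows, and TATAA in 2 (Nkx2-2 and Neurod1), beside 22.8%. The GC box GGGCGG was found in 4, beside 32.7%. The letters TGCTGAC of a Maf half-site, GTTNCC of an RFX half-site, TTGCNNAA of a C/EBP site and GTAAACA of a forkhead site, searched on both strands, were in none of the 8, beside 3.81%, 39.4%, 9.56% and 3.17% of all windows. These matches describe letters and are not measured binding sites.

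Other transcription factors of islets and pancreas were compared from a list of 51 genes, of which 38 were expressed. In it 2 passed the limit upwards and 2 downwards, beside 6.98% and 3.88% of all expressed genes. The median was -0.09, and with other scalings 0 to 2 passed the limit upwards. With the GC and length trend removed the median was -0.31, and none of the 4 passed it (Mlxipl 0.86, Nr4a1 0.68, Prox1 -0.68, St18 -0.61), while Nr1d1, a clock repressor named after its values were seen, did at -1.13. Mlxipl, the glucose-responsive factor ChREBP, was at 205 FPKM in the KO-labelled library and 90.7 FPKM in WT, and the immediate-early nuclear receptor Nr4a1 was at 7.32 and 2.91 FPKM. The lower ones were Prox1, a homeobox factor of endocrine progenitors, at 3.64 and 8.90 FPKM, and St18, a zinc-finger relative of Myt1, at 4.89 and 11.3 FPKM. Pax6, a paired-homeodomain factor of all islet cells, stood at 60.1 and 52.6 FPKM and was picked with its values in view. Nkx6-1 was 2.66 times Pax6 in WT and 0.885 times Pax6 in the KO-labelled library.

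Paralogs of the 10 factors were mostly low. Of 34 such genes 16 were expressed, and their median was -0.02. Past the limit were 2, both upwards, beside 6.98% of all expressed genes. Under each of the 4 other scalings 1 gene passed it, and none did with the trend removed. The 2 were Nkx2-3, a homeobox gene of gut and vascular tissue, at 5.86 and 1.86 FPKM, and Rfx2, a factor of ciliated cells, at 9.08 and 3.92 FPKM. Mafg, a small Maf protein, was at 25.3 and 14.0 FPKM, and Foxo3 at 6.64 and 11.6 FPKM (log2 difference -0.72). Nkx6-2, the closest relative of Nkx6-1, was at 0.067 and 0.051 FPKM and was chosen after its values were seen.

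Partners, co-regulators and inhibitors of the factors had a median of -0.04 over 38 expressed of 39 genes. Beside 6.98% upwards and 3.88% downwards over all expressed genes, the limit was passed by 4 upwards (3 to 4 under other scalings) and by none downwards (0 to 2). With the GC and length trend removed 3 passed it upwards, namely Id1, Ldb2 and Tcf4 (1.02, named after its value was seen), while Id3 and Tle2 were at 0.74 and 0.82. Id1 and Id3 encode inhibitors that pair with the E proteins on which Neurod1 depends. Id1 was at 35.1 FPKM in the KO-labelled library and 9.14 FPKM in WT, and Id3 at 36.5 and 13.9 FPKM. Tle2, a Groucho co-repressor, was at 24.1 and 9.18 FPKM, and Ldb2, a LIM-domain binding protein, at 6.34 and 2.31 FPKM. Id1, Id3 and Ldb2 are made by endothelial cells too, and the part of those cells, with marker sums of 895 against 392 FPKM, was not tested. Ldb1, the LIM-binding partner of Isl1 in islets, stood at 30.0 and 18.6 FPKM (log2 difference 0.66) and was also picked with its values in view.

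Genes known as targets of these factors in β-cells differed in both directions. All 30 were expressed, and 6 passed the limit downwards and 4 upwards, beside 3.88% and 6.98% of all expressed genes. The median was -0.40 beside 0.077 for all expressed genes. Under other scalings 7 to 9 passed the limit downwards and 2 to 3 upwards, beside 610 to 802 and 461 to 693 of all expressed genes. Glp1r, the receptor for the incretin GLP-1, had a log2 difference of -2.40, the fatty-acid receptor Ffar1 -2.24, the glucose-6-phosphatase gene G6pc2 -1.64 and the granin Scg2 -1.63. The remaining lower ones, chosen after their values were seen, were the prohormone convertase Pcsk1 at -1.35 and the glucose transporter Slc2a2 at -1.06. Higher ones, chosen likewise, included the neuropeptide Npy at 1.53, Nnat at 1.09 and Ins1 at 1.06. Slc2a2 stood at 72.3 FPKM in the KO-labelled library and 152 FPKM in WT. With the GC and length trend taken out, 6 passed it downwards and none upwards, and the median was -0.44. These 6 were not the same genes: Pcsk1 (-0.92) and Slc2a2 (-0.62) were within the limit, and Ins2 (-1.06) and Iapp (-1.03) were past it.

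Genes that Foxo proteins activate were close to even. Over all expressed genes 6.98% passed the limit upwards and 3.88% downwards. Of 23 expressed of 25 Foxo targets, 2 passed it upwards and 1 downwards (1 and 2 under other scalings), and the median was -0.12. With the GC and length trend removed none passed it upwards, Bbc3 being at 0.49 and Cdkn1a at 0.73, and Sesn3 passed it downwards at -1.11. Sesn3, a stress-induced regulator of mTOR signalling, was at 5.16 and 16.9 FPKM. Bbc3, a BH3-only gene, was at 7.42 and 2.60 FPKM and Cdkn1a, the cell-cycle inhibitor p21, at 29.3 and 13.3 FPKM; both are also p53 targets. Pdk4, a kinase of pyruvate dehydrogenase, was at 6.79 and 14.1 FPKM (log2 difference -0.96).

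**Figure D4:**
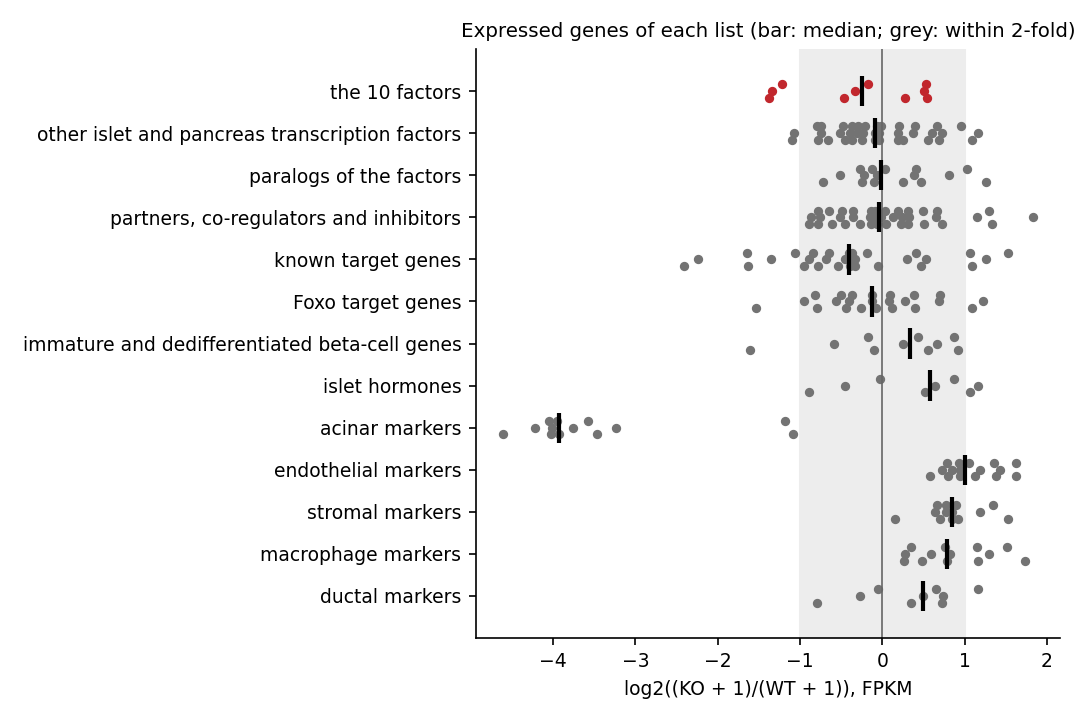
Log2 difference of each expressed gene by list (points) with the list's median (black bar) and the span within 2-fold in grey. The 10 factors (red) spread from -1.38 to 0.55, while the acinar markers lie far below 0 and the endothelial, stromal and macrophage markers lie above 0.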

How the data were processed

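One library of islet RNA per genotype was made from total RNA with a SMARTER kit, per the labels' protocols. Groups follow the genotype label. The authors deposited FPKM values for both libraries in 1 table. The genome build was GRCm38 (mm10), per the submitters' processing notes; the sources used here do not give the aligner, counter, annotation, strand setting or filters.

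FPKM values were used without further scaling. Whole reads were recovered by searching library totals and gene lengths from 60 to 30000 nucleotides. Whole reads in both libraries were found for 17178 of 17245 genes (99.6%), at a tolerance of 1e-05 reads plus 1e-09 of their number. The smallest such reads entered the intervals, so an interval can be too wide: Insm1 spans 3024 bases in RefSeq as a single exon, 2 times its smallest length of 1512. Reads amplified without molecular identifiers are not independent. No count test was run, because the unit is FPKM and no genotype has a replicate.

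Differences are log2((KO + 1)/(WT + 1)). A gene was kept if it reached 1 FPKM in one library or the other. The longest coding GENCODE M21 transcript gave GC content and length (12376 of 12428 genes, 99.6%), and trends were removed by lowess (fraction 0.3, 3 iterations). Both steps were tested on simulated data. Coordinates and promoters came from RefSeq on GRCm38.p6. Python 3.11.15, scipy 1.17.1 and statsmodels 0.14.6 were used.

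The 10 members and the 12 other lists were chosen with earlier results of these data known. Named genes are all members and up to 4 genes of each other list that the text describes, by widest difference, plus those said to be chosen after their values were seen. Alternatives were pseudocounts of 0.1 and 5, floors of 0 and 5 FPKM, 4 scalings, removal of the GC and length trend, and leaving out genes shared between lists. Some genes of the lists are counted but not reported by name here.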

Additional observations from a re-analysis of the deposited data

How the results depend on the processing

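No paired analysis was possible because each genotype has 1 library and the labels give no replicate numbers; for the same reason no library could be left out. Nkx6-1 and Insm1 were past 2-fold downwards in all 7 other settings computed per gene, and Glis3 in 6 of them, the exception being a pseudocount of 5. The direction of 8 factors held in all 7; Mafa and Nkx2-2 turned with the GC and length trend removed, to -0.07 and -0.13. The count of factors lower was 2 with a pseudocount of 5 and 3 otherwise, and none was 2-fold higher in any setting. The median of the 10 factors was -0.397 with both libraries brought to a total of 1000000, -0.399 with equal sums without the 20 highest genes and -0.451 with equal insulin sums; these scalings shift all genes, whose medians were -0.0386, -0.0586 and -0.106. Over all genes, 1556 were 2-fold higher with a pseudocount of 0.1, 305 with a pseudocount of 5, 555 with equal sums without the 20 highest genes, 461 with equal insulin sums and 402 with the trend removed. Downwards, 181 passed with a pseudocount of 5, 796 with a sum of 1000000 and 802 with equal insulin sums. Of 360 counts and medians of the 12 other lists under alternatives, 113 moved past 1.5 times (counts) or 0.1 (medians) and 247 did not. At least 350 reads were recovered per factor and library, and counting intervals do not cover the spread between animals.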

Other observations

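Genes that mark immature or dedifferentiated β-cells were mostly low in both libraries. Of 19 with values, 10 were expressed, with a median of 0.34. That median was -0.09 with the GC and length trend removed and -0.10 without genes shared with other lists. It was 0.18 with no floor and 0.17 with a floor of 5 FPKM. The limit was passed by 1, Serpina7, downwards, beside 3.88% of all expressed genes. Serpina7 was at 3.33 FPKM in the KO-labelled library and 12.2 FPKM in WT. Ldha, the lactate dehydrogenase that mature β-cells keep low, was at 12.2 and 5.98 FPKM, Slc5a10, a sugar transporter, at 1.21 and 0.209 FPKM and the Notch target Hes1 at 8.38 and 4.90 FPKM. Neurog3, the factor of endocrine progenitors that acts upstream of Neurod1 and Insm1, was at 4.91 and 3.98 FPKM, and Aldh1a3, a marker of dedifferentiated β-cells, at 0.829 and 0.801 FPKM; both were picked with their values in view.

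Of the 20 nearest coding genes in the table on either side of the 10 factors, 13 were expressed. Of these, 10 had a difference of the same sign as their factor and 3 of the other sign. The 13 lay from 6202 bases (Zc3h3) to 1196317 bases (Itga1) from their factor. The share of same-sign neighbours over all genes was not computed, so these counts have no like background. Over all 12428 expressed genes, 6766 lay above 0 and 5662 below. The signs are those of the deposited values, and the signs of Mafa and Nkx2-2 turned with the GC and length trend removed. Of the 3 of the other sign, Polr1d lay 158362 bases from Pdx1 and had a log2 difference of 0.60. Foxa2, 848634 bases from Nkx2-2, was at -0.21, and Gprc6a, 46295 bases from Rfx6, at -0.11. Of the 10, Ralgapa2, 14859 bases from Insm1, was at a log2 difference of -0.42 and Cds1, 100134 bases from Nkx6-1, at -0.39. Zc3h3 and Rhpn1, on either side of Mafa, were at 1.76 and 1.31. Cog6, 628654 bases from Foxo1, was at -1.23.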
